A study of Mus musculus with 30 samples.

Results

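Liver and inguinal white adipose tissue (iWAT, the subcutaneous fat of the groin) were compared within the same WT mice, so that each of the 5 WT liver libraries had a partner iWAT library from the same animal. A gene entered the comparison when its mean value reached 1 in at least 1 of the tissues, which kept 15292 of the 41549 genes in the table. The mice were males on a C57Bl/6J background that received a diet with 45% of its energy as fat for 12 weeks from the age of 2 months and were fasted for 4 h before the tissues were taken. The whole series holds 30 RNA-seq libraries, with the liver, iWAT and interscapular brown fat (iBAT) of each of 5 WT and 5 LFABP-/- mice, and LFABP is the liver fatty acid-binding protein, the product of Fabp1. All 30 libraries came from mice on the high-fat diet, so the contrast describes the tissues of fat-fed animals. The LFABP-/- livers and iWAT, which share no library with the WT ones, served as a comparison. The paired rows carry the replicate numbers 1 to 5, and values below are listed in that order.

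The liver is built mainly of hepatocytes, which release most of the plasma proteins, make bile acids, glucose, ketone bodies and urea, and package fat into lipoproteins. White adipose tissue is built around adipocytes, which store triglyceride in a single large droplet, release fatty acids when adrenergic signals switch on lipolysis, and secrete hormones such as leptin and adiponectin. Between the adipocytes lie progenitor cells, vessels, nerves and immune cells in a collagen-rich matrix, and the inguinal depot encloses a lymph node. Whole pieces of tissue were sequenced, so fewer cells of a type and less RNA per cell cannot be told apart.

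Genes whose transcripts separate the tissues are shown first by the 150 bases before their start, because short motifs of known hepatocyte and adipocyte factors can be looked up there. The windows are from RefSeq (GRCm38.p6), written 5′ to 3′ on the gene's strand and ending at the base before the start. Both strands were searched for a few motifs, and capitals mark a match. TATAAA is the usual form of a TATA box and was the first of them. GTTAAT is a short motif known from promoters of hepatocyte genes. TTGCGCAA is a palindrome bound by C/EBP factors. Alb at chr5:90460720-90460869 on the plus strand, Fabp1 at chr6:71199729-71199878 on the plus strand and Serpina1a at chr12:103863620-103863769 on the minus strand were far higher in liver, and each holds GTTAAT. Lep at chr6:29060071-29060220 on the plus strand and Adipoq at chr16:23146386-23146535 on the plus strand were far higher in iWAT, and the first holds TTGCGCAA.
Alb: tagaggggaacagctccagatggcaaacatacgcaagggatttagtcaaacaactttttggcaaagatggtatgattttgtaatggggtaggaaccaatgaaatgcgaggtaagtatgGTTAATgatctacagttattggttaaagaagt
Fabp1: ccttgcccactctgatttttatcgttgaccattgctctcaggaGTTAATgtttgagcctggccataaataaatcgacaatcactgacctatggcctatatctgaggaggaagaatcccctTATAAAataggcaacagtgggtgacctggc
Serpina1a: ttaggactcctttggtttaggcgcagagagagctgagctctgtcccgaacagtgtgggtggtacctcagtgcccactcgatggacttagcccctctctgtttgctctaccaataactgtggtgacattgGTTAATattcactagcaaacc
Lep: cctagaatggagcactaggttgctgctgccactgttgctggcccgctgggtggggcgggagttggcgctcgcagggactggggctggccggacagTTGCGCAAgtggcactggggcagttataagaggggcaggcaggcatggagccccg
Adipoq: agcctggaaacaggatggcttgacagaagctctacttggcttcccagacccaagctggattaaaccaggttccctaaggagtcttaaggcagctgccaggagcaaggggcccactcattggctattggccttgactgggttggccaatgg

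A promoter was found for 11512 of the 15292 genes. GTTAAT stood in the 150 bases of 43 of the 250 matched genes that were higher in liver by more than 6 on the log2 scale (17.2%), in 2 of the 106 matched genes that were lower by more than 6 (1.89%), and in 2.12% of all 11512 windows. TATAAA was found in 17.2% of the first set, 12.3% of the second and 4.07% of all windows. The HNF4 core CAAAGTCCA was in 9 of the 250 windows (3.6%), in none of the 106 and in 0.313% of all, and the related CAAAGGTCA, which shares its first letters, was in 1, none and 25 windows. TTGCGCAA was in none of the 250, in 1 of the 106 and in 0.165% of all. These shares describe letters in a window and say nothing of binding.

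Both marker genes went with the labels of all 10 libraries. Fabp1, the fatty acid carrier of hepatocytes and enterocytes (ENSMUSG00000054422, chr6:71199827-71205023, plus strand, GRCm38), stood at 12672.1, 12697.6, 9165.5, 11860.2 and 12327.2 in the livers and at 23.9, 20.8, 23.1, 9.0 and 1.9 in iWAT. Values are on a per-million scale corrected for transcript length (see the processing below), so levels of genes can be set side by side within a library. Between liver and iWAT they also depend on the scaling of the libraries, which is taken up below. Adipoq, which encodes adiponectin (ENSMUSG00000022878, chr16:23146536-23158028, plus strand), stood at 0.8, 6.5, 5.3, 4.3 and 5.2 in liver and at 5786.5, 5822.6, 5292.9, 3283.6 and 6360.0 in iWAT. Neither gene overlapped between the tissues in any pair of libraries. The difference of log2(value + 0.5), liver minus iWAT, was 9.89 (SE 0.52) for Fabp1 (limma, paired by mouse, adjusted p = 5.16e-06) and -10.24 (SE 0.38) for Adipoq (adjusted p = 1.11e-06). In the iBAT of the same mice the means were 3.16 for Fabp1 and 770.54 for Adipoq.

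Several libraries held more than their label, which bears on what follows. In the iWAT of replicates 3 and 4 the 14 B lymphocyte markers summed to 631.9 and 2454.0, against 16.1, 19 and 16.6 in the other iWAT libraries, and the T lymphocyte markers followed the same order. Replicate 1 of iWAT carried epithelial transcripts, with Krt5, a keratin of basal epithelial cells, at 17.1, against at most 0.1 in the other 4. Replicate 2 of iWAT carried skeletal muscle transcripts, with Ckm, muscle creatine kinase, at 52.6, against 2.6 or less in the others. Replicate 5 of liver had 99 genes more than 2 on the log2 scale from the median of the livers, against 5 to 28 in the other 4 livers. In iWAT the same count was 869 for replicate 4, 290 for replicate 3, 85 for replicate 1, 42 for replicate 2 and 17 for replicate 5.

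A gene was called when its adjusted p was below 0.1 and its log2 difference exceeded 1 in size. By this rule 1530 genes were higher in liver (10% of those tested) and 8937 were lower (58.4%), and 4825 were not called. The tissues did not overlap for 12156 genes (79.5%). This share includes 751 genes that passed the filter on low values through liver alone and 3533 that passed through iWAT alone, which had to differ to be counted. List counts below include such genes, since only 7 of 18 hepatocyte transcription factors reached a mean of 1 in iWAT and only 2 of 14 B lymphocyte markers did in liver. The median difference over all genes tested was -1.20 (interquartile range -1.93 to -0.50), so an ordinary gene was lower in liver on this scale. The values of a library sum to a fixed total, so a large share for some genes leaves less for all others. When the libraries were instead scaled by the median ratio over genes above 1 in every library, the median moved by 0.94 to -0.26, and 2552 genes (16.7%) were higher and 4142 (27.1%) lower in liver. Of all calls, 85.4% were lower in liver on the deposited scale and 61.9% after that scaling. All 1530 genes called higher stayed called higher, 4142 of the 8937 called lower stayed called lower, and none changed to a call in the other direction, although 176 of the 8937 had a difference above 0. Each result below is therefore to be read against the median of -1.20. Without the mice of replicates 3 and 4 the median was -0.94, and 1634 genes were higher and 7239 lower.

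**Figure D1:**
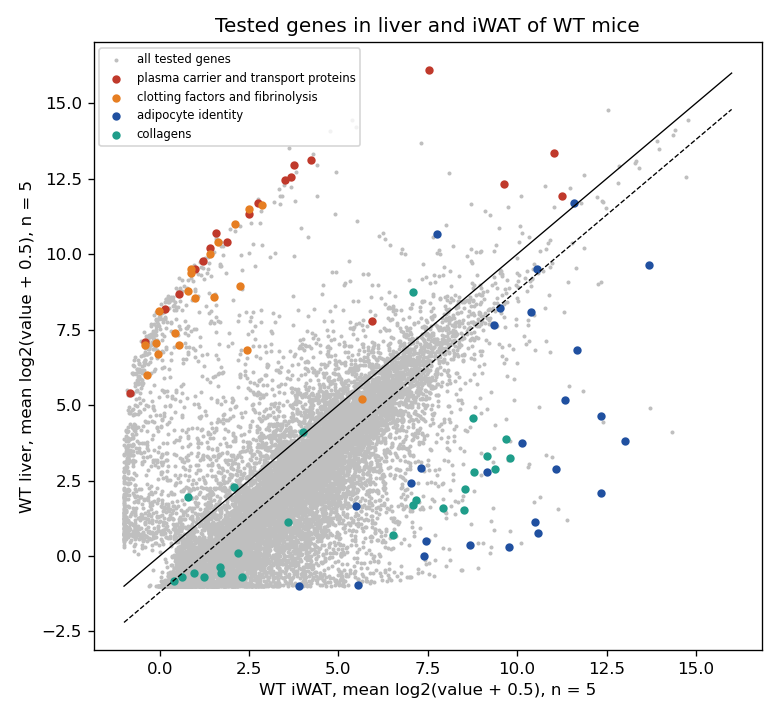
Mean log2(value + 0.5) of each of the 15292 genes in the 5 WT iWAT libraries (x axis) and the 5 WT livers (y axis). Grey points are all genes, coloured points are genes of 4 lists, the solid line marks equal values and the dashed line the median difference of -1.20. Plasma and clotting proteins lie far above the lines, adipocyte and matrix genes far below them.

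Large differences were more even in number. More than 4 on the log2 scale separated 545 genes that were higher in liver and 643 that were lower, more than 6 separated 316 and 145, and more than 8 separated 95 and 29. Of the genes called higher in liver 678 had a mean below 1 in iWAT, and of those called lower 3147 had a mean below 1 in liver. Among the tested genes 298 were listed at 0 in all 5 livers and 81 at 0 in all 5 iWAT libraries, and no fold is given for these. In the iBAT of the same mice, 92.4% of the 1530 genes higher in liver lay below every liver, and 36.7% of the 8937 lower genes lay above every liver. By kind of gene, 9.35% of 13830 protein-coding genes were called higher and 58.5% lower, and for 1323 long non-coding RNA genes the shares were 14.4% and 60.9%.

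The transcriptome of liver was concentrated in fewer genes. The 10 genes with the highest values held 24.8% ± 0.50 (SD, n = 5) of the total in liver and 19.3% ± 3.86 in iWAT, and the 100 highest held 58.8% ± 1.72 and 43.5% ± 4.65. In liver 46 to 59 genes were enough to hold 50% of the total, whereas iWAT needed 187, 124, 226, 323 and 123 genes. The 226 and 323 belonged to replicates 3 and 4, the libraries with lymph node. Albumin alone held 6.23 to 7.69% of the total in liver and 0.0103 to 0.0322% in iWAT. The genes of 6 lists of secreted liver proteins together held 30.2 to 35.2% in liver and 3.07 to 5.37% in iWAT. Cytosolic ribosomal protein genes took 2.07% ± 0.29 in liver and 4.81% ± 2.26 in iWAT, and the share was highest, at 5.35% and 8.55%, in replicates 3 and 4 of iWAT. Mitochondrially encoded genes took 13.6% ± 1.36 in liver and 16.8% ± 3.25 in iWAT, and these overlapped. Each of these shares except the mitochondrial one was on the same side in all 5 mice and did not overlap between the tissues. With 5 pairs the exact two-sided sign-flip permutation test cannot go below p = 0.063, which the non-overlapping shares reached, and the mitochondrial share gave p = 0.125.

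Plasma carrier and transport proteins held 13.2% of the total in liver and 0.602% in iWAT. Of 20 tested members 19 were called higher in liver, none was called lower, and their median difference was 8.54. Alb, albumin, stood at 62265.2, 75660.7, 62451.2, 76062.5 and 76918.6 in liver and at 191.0, 322.2, 233.8, 103.2 and 140.7 in iWAT, a difference of 8.58 (SE 0.29, adjusted p = 7e-07). Other members with wide gaps were Ahsg, which encodes fetuin-A (9.19), Pzp, a protease-trapping macroglobulin (9.11), and Gc, the vitamin D carrier (8.95). The carriers of iron, retinol and copper were much less restricted. Trf, transferrin, averaged 10581.2 in liver and 2138.18 in iWAT, a 4.95-fold gap, Rbp4, the retinol carrier, 5169.34 and 834.02, and Cp, ceruloplasmin, differed by 1.86. Hp, haptoglobin, which binds free haemoglobin, was the member not called, with 3405.3 to 4988.0 in liver and 1439.4 to 4176.9 in iWAT (difference 0.68, adjusted p = 0.0917), and the tissues overlapped.

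Of 20 clotting and fibrinolysis genes 19 were higher in liver, with a median of 7.48. Fga and Fgb, chains of fibrinogen, differed by 8.99 and 8.90, and Plg, plasminogen, by 8.75. Pros1, which encodes the anticoagulant protein S, averaged 36.94 in liver and 50.54 in iWAT (difference -0.44) and was not called. Among 16 acute phase genes 11 were higher in liver. Hamp, hepcidin, the hormone that blocks iron export, averaged 3577.9 in liver and 9.38 in iWAT. Saa1, serum amyloid A1, stood at 57.3, 66.4, 366.8, 35.3 and 87.2 in liver, highest in replicate 3, and below 1 in all iWAT libraries. Lbp, the carrier of lipopolysaccharide, differed by -0.99 with 35.42 in liver and 87.42 in iWAT, and was not called.

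The complement system was split by branch between the tissues. Of 25 components 14 were higher in liver, 5 lower and 6 not called, with a median of 3.14. The terminal and lectin pathway genes led on the liver side, with Mbl2, a mannose-binding lectin, at 8.64 and C9, a subunit of the membrane pore, at 8.12. C3, the central component, averaged 2765.52 in liver and 587.8 in iWAT, a 4.71-fold gap. On the other side, Cfd, which encodes adipsin, the protease that starts the alternative pathway, stood at 9.3, 23.8, 10.7, 25.6 and 21.4 in liver and at 12244.8, 23262.1, 22974.8, 14791.0 and 36955.1 in iWAT. Its difference of -10.21 (SE 0.27, adjusted p = 3.1e-07) was the largest of any complement gene. C1qa, C1qb and C1qc, the chains of C1q made by macrophages, and Cfp, properdin, were lower in liver (differences of -2.07 to -1.70), but after the median-ratio scaling only 2 of the 5 lower members were still called lower.

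Apolipoproteins followed the plasma proteins. Of 22 genes of lipoprotein assembly 19 were higher in liver, 1 was lower, and the median was 6.97. Apoa1, the main protein of high-density lipoprotein, stood at 20141.3, 25673.5, 19354.5, 22001.7 and 24909.4 in liver and at 46.2, 74.4, 66.6, 30.2 and 17.3 in iWAT (difference 9.06). Apob, the scaffold of very-low-density lipoprotein, averaged 797.72 in liver and 1.58 in iWAT. Apoe was abundant in both tissues, with 27893.9 ± 2593 (SD) in liver and 6048.52 ± 1065 in iWAT, a 4.61-fold gap that did not overlap. Pltp, the phospholipid transfer protein, was the member called lower in liver (difference -1.53, adjusted p = 0.00167), and after the median-ratio scaling its -0.46 was not called.

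The major urinary proteins, pheromone carriers that male mouse livers make in bulk, differed widely between the livers. All 19 tested Mup genes were higher in liver, with differences from 4.11 to 9.33. Mup20 stood at 14752.6, 20953.0, 24517.0, 12382.4 and 16956.6 in liver and at 52.9, 52.4, 52.3, 11.2 and 7.8 in iWAT. Mup7 stood at 16451.6, 6837.9, 31887.5, 9394.0 and 403.6 in liver, lowest in replicate 5 and highest in replicate 3. Mup genes resemble each other closely, so reads may have been split between them, and the sum is safer than any member. The share of all Mup genes in the total was 7.87, 6.79, 14.1, 5.37 and 2.88% in the 5 livers, and 0.0111 to 0.088% in iWAT. Hsd3b5, a steroid dehydrogenase that is a male-biased liver gene, followed the same order at the ends, with 125.0, 70.0, 259.6, 150.7 and 4.1. All 13 male-biased hepatocyte genes were higher in liver than in iWAT.

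All 20 tested genes of bile acid synthesis and transport were called higher in liver, although only 8 of them reached a mean of 1 in iWAT and the others entered through liver alone. Cyp7a1, the rate-limiting enzyme of bile acid synthesis, stood at 79.2, 115.0, 70.7, 79.3 and 60.8 in liver and at 0.1, 0.2, 0.1, 0.1 and 0.0 in iWAT (difference 7.06, SE 0.13). Abcb11, the bile salt export pump, differed by 7.89, Slc10a1, the uptake carrier, by 8.16, and Nr1h4, the bile acid receptor FXR, by 6.12. The smallest gap was that of Hsd3b7, a dehydrogenase of the early steps, with 295.6 in liver and 83.58 in iWAT. All 20 were also called higher without replicates 3 and 4 and in the LFABP-/- mice.

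Cytochrome P450 genes were mostly, but not wholly, liver genes. Of 29 tested members of families 1 to 4, 24 were higher in liver and 3 were lower, with a median of 7.09. Cyp2d10 and Cyp1a2, both drug-metabolising enzymes, differed by 8.64 and 8.26. Cyp2e1, which oxidises ethanol and acetone, was high in both tissues, with 6169.4, 4186.8, 5843.4, 7867.9 and 2266.3 in liver and 1235.0, 2963.2, 1627.6, 736.0 and 3661.8 in iWAT. In replicate 5 the order was turned, with more in iWAT than in liver, the tissues overlapped, and the difference was 1.48 (SE 0.57, adjusted p = 0.0436). The call was lost when replicate 1, 3 or 4 was left out and held without replicate 2 or 5, and without replicates 3 and 4 together the difference was 0.71 (adjusted p = 0.324). Cyp1b1, which acts on steroids and xenobiotics outside the liver, was lower in liver, with a difference of -4.25, as were Cyp1a1 (-2.96) and Cyp4b1 (-2.75). Of 25 conjugation enzymes 19 were higher in liver and 1, Gstm2, a glutathione transferase, was lower. The glucuronidating Ugt2b5 differed by 8.50.

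The urea cycle genes were all higher in liver, whereas the median of the genes of branched-chain amino acid breakdown lay close to that of all genes. All 8 tested urea cycle genes were higher in liver, with a median of 7.00. Cps1, the entry enzyme, stood at 1594.8, 1434.3, 1651.9, 1445.6 and 1236.9 in liver and at 4.2, 4.8, 3.2, 1.5 and 0.8 in iWAT. Of 30 genes of amino acid breakdown 27 were higher in liver, among them Mat1a, which makes S-adenosylmethionine (8.69), and Tat, tyrosine aminotransferase (8.69). Of the 19 genes of branched-chain amino acid breakdown 10 were lower in liver, no larger a share than the 58.4% of all genes. Only 1, the phosphatase Ppm1k, was higher. Bcat2, the mitochondrial aminotransferase that starts the pathway, stood at 20.2, 19.7, 17.8, 15.6 and 14.7 in liver and at 124.5, 178.8, 149.0, 112.9 and 209.4 in iWAT (difference -3.08, adjusted p = 7.52e-06). Bckdk, the kinase that switches off the next enzyme, averaged 7.64 in liver and 53.6 in iWAT. Bcat1, the cytosolic aminotransferase, was listed at 0 in every liver and averaged 4.98 in iWAT. The median of this list, -1.02, lay close to that of all genes, and after the median-ratio scaling it was 0.05 with 3 members higher and 4 lower.

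Of 20 genes of gluconeogenesis and glycogen 9 were higher and 7 lower in liver, and after the median-ratio scaling 13 were higher and 5 lower. Of 22 glycolysis genes 3 were higher and 11 lower, no larger a share than the 58.4% of all genes, and after that scaling 5 were higher and 8 lower. G6pc, which releases free glucose, stood at 289.1, 275.3, 413.3, 640.5 and 441.1 in liver and at 1.5, 2.2, 2.0, 1.3 and 1.1 in iWAT (difference 7.56). Fbp1, fructose bisphosphatase, differed by 8.50. Pck1, which feeds glucose synthesis in liver and glycerol synthesis in fat, was high in both tissues, with 3089.3, 2939.1, 2780.7, 4190.1 and 3722.8 in liver and 2219.9, 3732.7, 3099.7, 2507.8 and 4193.8 in iWAT. Its difference was 0.11 (SE 0.22, adjusted p = 0.653) and the tissues overlapped, but after the median-ratio scaling the difference was 1.18. Pygb and Gys1, the phosphorylase and synthase of glycogen outside the liver, were lower in liver (-5.38 and -5.21).

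Of 9 genes of ketone body synthesis and use 4 were higher in liver, 2 lower and 3 not called, and after the median-ratio scaling 6 were higher and 1 lower. Oxct1, which starts the use of ketone bodies, stood at 2.3, 3.1, 2.9, 2.5 and 6.1 in liver and at 286.6, 281.3, 238.7, 162.8 and 278.8 in iWAT (difference -6.06), and the tissues did not overlap. Mitochondrial fatty acid oxidation, which feeds ketone synthesis, was close to even. Of its 24 genes 5 were higher, 3 lower and 16 not called, with a median of -0.31, and after the median-ratio scaling 11 were higher and 1 lower. Cpt1a, the gate of entry, differed by 2.22 and its muscle form Cpt1b by -1.45. Peroxisomal genes leaned to liver, with 15 of 27 higher and 3 lower, led by Hao1, glycolate oxidase (7.92), and Acox2, the oxidase of bile acid side chains (6.92). Abcd2, a very-long-chain fatty acid importer, was lower in liver (-4.60), as was Crat, carnitine acetyltransferase (-2.16).

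Genes of fatty acid and triglyceride synthesis fell on both sides. Of 30 genes 7 were higher in liver and 14 lower, against 10% and 58.4% of all genes, and after the median-ratio scaling 11 were higher and 8 lower. Scd1, which desaturates stearate, was the most abundant nuclear-encoded transcript of iWAT, with 31784.6, 32605.9, 26234.4, 17527.9 and 30886.1 there and 8298.8, 6853.5, 5815.9, 5438.9 and 4335.8 in liver (difference -2.18, adjusted p = 0.00025). Fasn, fatty acid synthase, stood at 221.5, 152.4, 86.2, 138.0 and 129.1 in liver and at 1850.0, 1931.6, 1096.4, 736.3 and 1228.2 in iWAT (difference -3.21). Neither overlapped. Dgat1, which finishes triglyceride synthesis, was lower (-3.72), as was Acaca, acetyl-CoA carboxylase (-2.35). The members on the liver side elongate and desaturate polyunsaturated chains. Elovl2 differed by 8.69, Fads2 by 6.41 and Fads1 by 3.65, and Elovl2 stood at 449.1 to 719.6 in liver and 0.3 to 1.8 in iWAT. Cholesterol synthesis was on the liver side, with 15 of 24 genes higher and none lower.

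Fatty acid-binding proteins, carriers, coats and lipases of the lipid droplet drew the sharpest contrasts within families. Fabp4, the adipocyte carrier, stood at 7.3, 20.2, 13.3, 11.5 and 19.5 in liver and at 8423.2, 9333.7, 8969.9, 5392.6 and 10473.5 in iWAT (difference -9.22), the mirror of Fabp1. Fabp2, the intestinal form, averaged 177.08 in liver and 1.94 in iWAT, Fabp7, the brain form, 4.24 and 0.62, and Fabp5, the epidermal form, 47.52 and 132.12, each called in its direction. Of 18 lipid droplet genes 4 were higher in liver and 10 lower, a share near the 58.4% of all genes, and after the median-ratio scaling 7 were higher and 7 lower. Plin1, which coats the droplet of adipocytes, stood at 0.8, 3.0, 2.0, 1.3 and 1.8 in liver and at 1571.7, 1594.2, 1367.2, 1064.7 and 1786.1 in iWAT (difference -9.40). Plin2, the coat found in most cells, stood at 380.4, 558.6, 286.7, 233.1 and 569.3 in liver and at 354.4, 341.4, 373.2, 253.1 and 357.0 in iWAT, overlapping, with a difference of 0.20 (adjusted p = 0.356) that became 1.27 after the median-ratio scaling. Hsd17b13, a droplet protein of hepatocytes, differed by 8.45 and Plin5, which ties droplets to mitochondria, by 2.34. Cidec, which fuses droplets, stood at 18.6, 61.2, 9.5, 10.2 and 72.7 in liver and at 6000.4, 6913.8, 4393.9, 3055.2 and 6948.6 in iWAT, and replicates 2 and 5 had the highest values in liver.

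All 23 genes of lipolysis and its receptors were called lower in liver, against 58.4% of all genes. After the median-ratio scaling 21 of 23 were still called lower, against 27.1% of all genes. A mean of 1 was reached in liver by 16 of them, and the others entered through iWAT alone. Pnpla2, the first lipase of triglyceride, averaged 115.22 in liver and 3392.02 in iWAT, Lipe, hormone-sensitive lipase, 13.3 and 1153.48, and Mgll, the last lipase, 126.14 and 901.18. Among the receptors, Adrb3, the beta3-adrenergic receptor, differed by -6.39, Hcar1, the lactate receptor that restrains lipolysis, by -7.71, and Npr3, which clears natriuretic peptides, by -7.88. Prkar2b, the regulatory subunit of protein kinase A, differed by -8.48. The intravascular arm was split. Of 15 genes of the lipoprotein lipase axis 7 were higher and 6 lower in liver. Lpl, the lipase itself, stood at 3.0, 13.8, 5.6, 3.7 and 16.7 in liver and at 3091.3, 2638.3, 2259.4, 1204.7 and 2209.6 in iWAT.

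Adipokines and adipocyte identity genes marked the fat side. Of 19 adipokines 14 were lower in liver and 2 higher, and of 26 identity genes 24 were lower and 1 higher. Of all genes 58.4% were lower. After the median-ratio scaling 12 adipokines and 21 identity genes were lower, against 27.1% of all genes. Lep, leptin, stood at 0.1, 0.5, 1.8, 0.9 and 1.0 in liver and at 2249.5, 878.4, 976.9, 511.8 and 521.8 in iWAT, highest in replicate 1 (difference -9.47, SE 0.51). Retn, resistin, differed by -9.83 and Sfrp5, a secreted Wnt inhibitor, by -7.85. Agt, angiotensinogen, and Rbp4 are counted as adipokines, but were 11.2-fold and 6.20-fold higher in liver. Adh1, an alcohol dehydrogenase, was the identity gene higher in liver (difference 2.90), and Pck1 the one not called. Other genes with the largest differences on the fat side were Sncg, gamma-synuclein (-10.19), Aoc3, a vascular adhesion oxidase (-9.68), Nnat, neuronatin (-9.59), and Slc7a10, an amino acid carrier of white adipocytes (-9.28). Sncg, Nnat and Slc7a10 averaged 35.86, 22.92 and 7.42 in iBAT and 2751.98, 2284.9 and 491.9 in iWAT.

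Of 14 tested brown and beige fat genes 9 were lower in liver, against 58.4% of all genes, 2 were higher and 3 were not called. After the median-ratio scaling 8 were lower and 3 higher. Ucp1 and Cox8b averaged less in both tissues than in iBAT. Ucp1, the uncoupling protein, stood at 9.3, 12.7, 7.2, 1.0 and 1.4 in liver and at 9.4, 18.2, 1.7, 1.6 and 3.2 in iWAT, against a mean of 4794.36 in iBAT. Its difference of -0.03 was not called. Cox8b, a subunit isoform of brown fat and muscle, averaged 6.28 in liver, 345.66 in iWAT and 5892.72 in iBAT.

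Of 18 hepatocyte factors 17 were higher in liver and 1 was lower, with a median of 5.37. Hnf4a stood at 300.6, 414.7, 293.8, 401.1 and 329.9 in liver and at 0.5, 1.3, 0.8, 0.7 and 0.1 in iWAT (difference 8.28). Foxa2 differed by 5.78. Cebpa, which serves both hepatocytes and adipocytes, was the lower one, with a mean of 727.9 in liver and 1535.7 in iWAT (difference -1.06), and after the median-ratio scaling the difference was 0.02. Of 24 adipogenic factors 16 were lower and 4 higher in liver, a share near the 58.4% of all genes, and after the median-ratio scaling 11 were lower and 5 higher. Pparg, the master regulator of adipocytes, stood at 5.7, 9.2, 4.1, 6.9 and 11.7 in liver and at 176.2, 176.5, 167.9, 97.6 and 188.9 in iWAT (difference -4.38), and Ebf1 differed by -6.26. Tcf21, a factor of mesenchymal progenitors in visceral fat and of hepatic stellate cells, went the other way, with 5.22 in liver and 0.04 in iWAT.

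Of the 33 tested homeobox and position genes all had a mean of at least 1 in iWAT and only 4 in liver, so the others entered through iWAT alone and had to be lower in liver. Their count is therefore a description. Hoxc10, which is used along the posterior body, stood at 37.1, 42.3, 32.8, 22.4 and 37.8 in iWAT, at 0 in 4 livers and at 0.1 in the other. Hoxc8 averaged 0.1 in liver and 87.12 in iWAT. Hoxc10 was listed at 0 in iBAT, which lies between the shoulders, and Hoxc8 averaged 1.6 there.

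Most matrix genes were lower in liver, a larger share than the 58.4% of all genes. Of 25 collagens 21 were lower in liver and 2 higher, and of 32 matrix glycoproteins 24 were lower and 3 higher. Of 24 proteases and inhibitors 22 were lower and 1 higher. After the median-ratio scaling 18, 23 and 19 members of these lists were lower, against 27.1% of all genes. Col1a1, the main chain of type I collagen, stood at 2.3, 9.2, 4.7, 4.1 and 33.9 in liver and at 620.9, 770.4, 1055.9, 412.1 and 609.7 in iWAT (difference -6.48). Replicate 5 was the highest liver. Sparc, a matrix-binding protein, averaged 3929.42 in iWAT and 49.26 in liver. Col18a1, whose end fragment is endostatin, was higher in liver, with 430.5 against 140.48. Vtn, vitronectin, and Fn1, fibronectin, which hepatocytes release into plasma, were higher by 6.44 and 1.79. Gsn, gelsolin, an actin-severing protein, was the highest progenitor and fibroblast gene in iWAT with a mean of 13862.0 and 31.86 in liver, and 20 of the 22 genes of that list were lower in liver.

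Of 22 insulin action genes 19 were lower in liver, against 58.4% of all genes, and 3 were not called, with a median of -1.88. After the median-ratio scaling 9 were called lower, against 27.1% of all genes. Slc2a4, the insulin-responsive glucose transporter GLUT4, stood at 1.5, 0.8, 0.8, 1.2 and 0.5 in liver and at 184.7, 216.6, 162.1, 120.8 and 210.5 in iWAT. Cav1, caveolin, differed by -8.66. Insr, the insulin receptor, averaged 24.42 in liver and 34.16 in iWAT, a difference of -0.48 that was below the threshold of size and became 0.58 after that scaling. Of 20 hepatokines and growth hormone targets 15 were higher in liver, among them Igfbp1, which binds insulin-like growth factors (8.34), and Fgf21, a fasting hormone (3.80). Igf1 averaged 102.4 in liver and 48.12 in iWAT, and Ghr, the growth hormone receptor, 92.6 and 306.52.

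**Figure D2:**
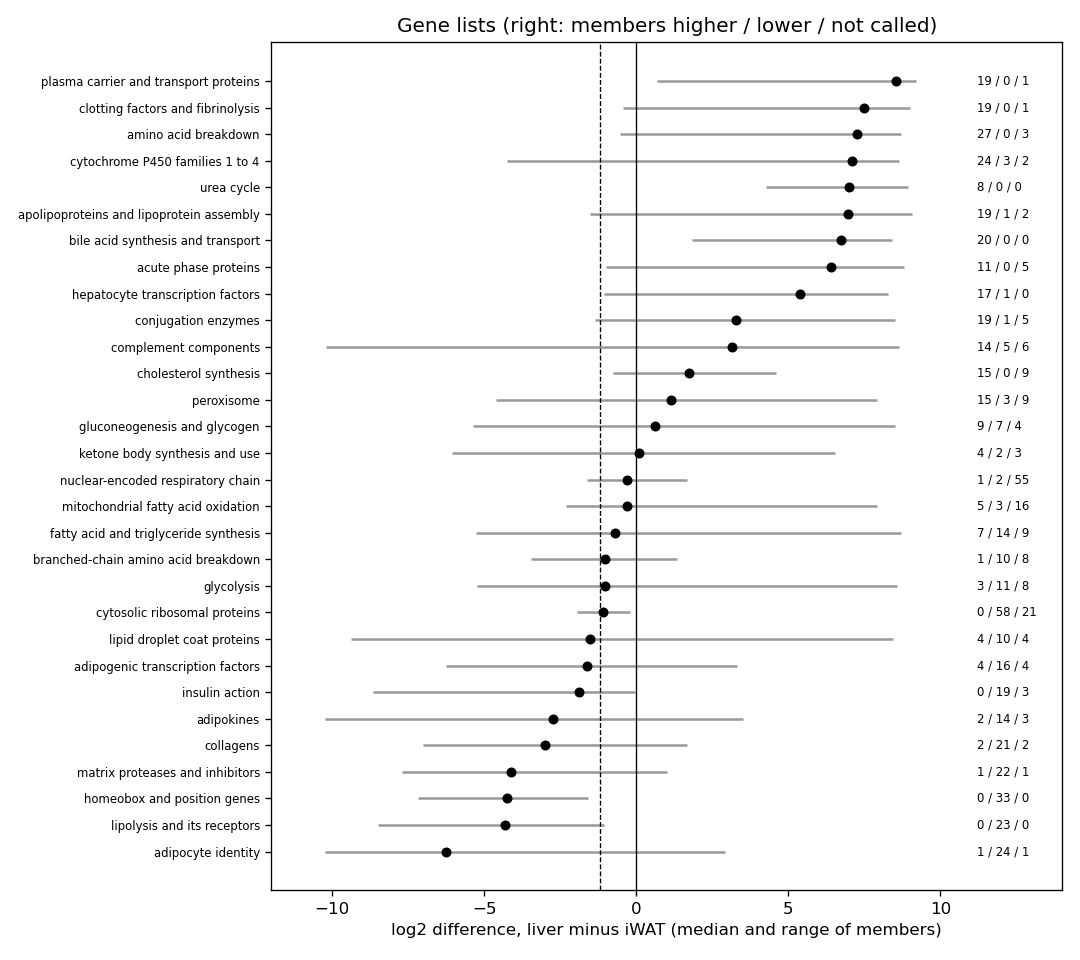
Median log2 difference (liver minus iWAT) of 30 gene lists (points) with the range from the lowest to the highest tested member (lines). The dashed line is the median of all genes, -1.20, and the numbers at the right give members higher, lower and not called. Bile acid and urea cycle genes lie wholly above 0, and lipolysis and homeobox genes wholly below it.

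In many processes the tissues used different genes for the same step. Of 47 pairs of related genes, 1 known from liver and 1 from fat or most tissues, 24 had the first called higher and the second called lower in liver. The gene with the higher mean changed between the tissues in 27 pairs, and in 44 pairs the first gene's part of the pair's sum did not overlap between the tissues. Among all tested genes 79.5% did not overlap between the tissues, 10% were called higher in liver and 58.4% lower. The pairs were not counted again after the median-ratio scaling. They were picked from known biology, so these counts describe them and are not a test. Slc2a2, the hepatic glucose transporter, made up at least 98.9% of the sum with Slc2a4 in every liver and at most 0.308% in every iWAT library. Pklr and Pkm, the pyruvate kinases, gave 94.3% and 0.212% by their means. The PPAR receptors gave 93.0% for Ppara in liver, which switches on fatty acid oxidation, and 3.73% in iWAT, where Pparg led.

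Other pairs did not turn. Scd1 made up at least 98.4% of its sum with Scd2 in every library of both tissues. Ldha, the muscle form of lactate dehydrogenase, was at 615.9 in liver and 660.46 in iWAT, and Ldhb, the heart form, at 3.68 and 112.92. Acsl1, an acyl-CoA synthetase, was the leading gene of its pair in both tissues, although Acsl5 was higher and Acsl1 lower in liver. Pnpla3 stood at 5.9, 2.8, 3.2, 3.4 and 1.6 in liver and at 600.9, 355.3, 321.8, 314.3 and 234.6 in iWAT (difference -6.58), and this lipase of droplets did not overlap between the tissues.

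**Figure D3:**
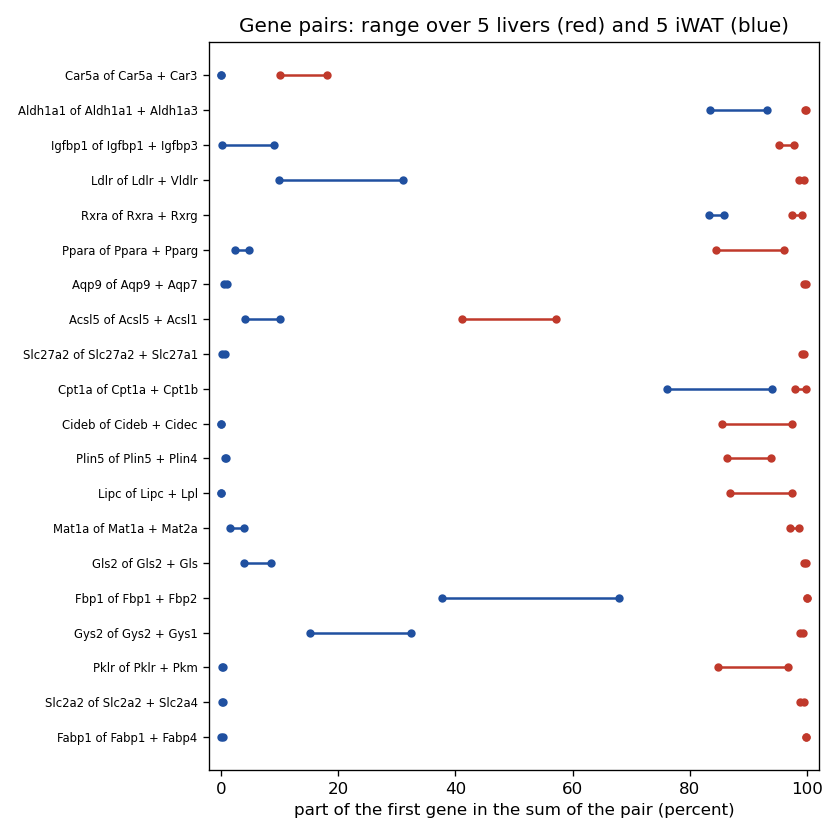
Part of the liver gene in the sum of each pair (percent, x axis) for 20 of the 24 pairs in which the liver gene was called higher and the other called lower, with the range over the 5 livers (red) and the 5 iWAT libraries (blue). The ranges do not overlap in any of these pairs, and for the fatty acid-binding pair they run from 99.8 to 99.9% in liver and from 0.0181 to 0.283% in iWAT.

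Few genes of the common machinery of cells were called, apart from the ribosomal proteins. Of 79 cytosolic ribosomal protein genes 58 were called lower in liver, none higher, with a median of -1.10, and without replicates 3 and 4 only 7 were called lower. After the median-ratio scaling none was called. Of 31 proteasome genes, with a median of -0.54, 1 was called, Psmd14 (-1.22), and of 58 nuclear genes of the respiratory chain 1 was higher and 2 were lower, with a median of -0.30. After the median-ratio scaling 12 respiratory chain genes were called higher and none lower. None of the 13 mitochondrially encoded protein genes was called, and their median was -0.32. mt-Co1, a subunit of cytochrome oxidase, averaged 22401.5 in liver and 28221.1 in iWAT. Of 32 genes of the secretory pathway 3 were higher, with Sar1b, which buds the carriers of lipoproteins, first at 1.75, and 1 was lower, with a median of -0.10. After the median-ratio scaling 14 of them were higher and none lower. The medians of the last 3 of these lists lay above the upper quartile of all genes, -0.50. Of 18 clock genes 4 were higher and 6 lower, and after the median-ratio scaling 7 were higher and 1 lower. Nr1d1, a repressor of the clock, averaged 66.54 in liver and 217.06 in iWAT.

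B and T lymphocyte genes need to be read with the lymph node in mind. All 14 B lymphocyte markers and 16 of 18 T lymphocyte markers were called lower in liver, but without replicates 3 and 4 these counts fell to 1 and 4, and 1 T lymphocyte marker was then called higher. Cd3e, a chain of the T cell receptor complex, stood at 0.3, 0.2, 0.3, 0.2 and 1.0 in liver and at 1.0, 0.5, 14.2, 56.3 and 1.4 in iWAT, with a difference of -2.46 with all mice and -0.59 without these 2 mice. Ccl21a, the chemokine of lymph node stroma, stood at 2.0, 3.2, 1.7, 1.4 and 7.7 in liver and at 1.8, 14.6, 462.3, 1627.9 and 11 in iWAT. In both genes replicates 3 and 4 of iWAT held the highest values, and replicate 4 exceeded replicate 3. Of 7 lymph node stroma genes 5 were lower in liver with all mice and 1 without these mice, and the remaining one was Cxcl13, whose iWAT values of 15.1, 23.9 and 24.1 in the other mice all exceeded the highest liver value of 2.6.

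**Figure D4:**
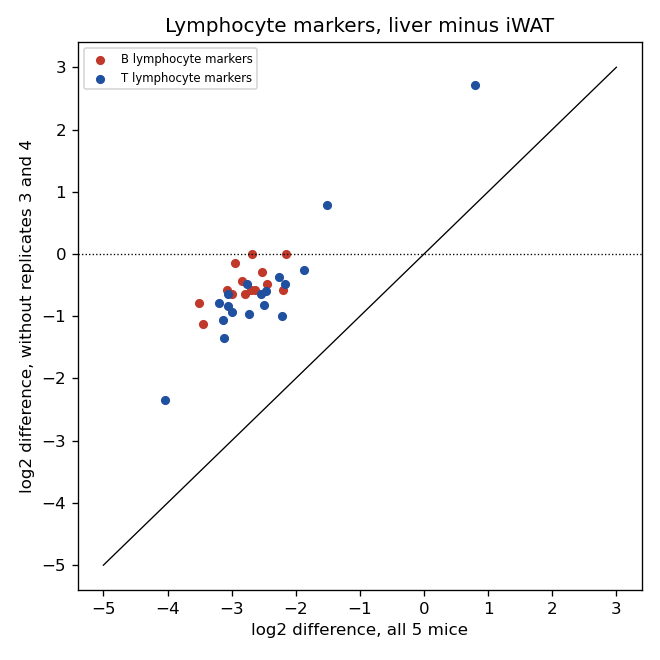
Log2 difference (liver minus iWAT) of the 32 tested B and T lymphocyte markers with all 5 mice (x axis) and without replicates 3 and 4 (y axis). The solid line marks equal values and the dotted line 0. Most points lie nearer to 0 on the y axis than on the x axis, as Cd3e does with -2.46 and -0.59.

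Markers of immune cells other than lymphocytes fell on both sides. Of 17 macrophage markers 15 were lower in liver with all mice and 12 without replicates 3 and 4. Cd209f, a lectin of resident tissue macrophages, averaged 0.1 in liver and 46.38 in iWAT, and Lyz2, lysozyme, 100.78 and 1136.52. The Kupffer cell markers, those of the resident macrophages of liver, went the other way in 7 of 10 genes. Among these markers 1 was called lower in liver and 2 were not called. Clec4f, their defining lectin, stood at 80.4, 77.1, 88.2, 51.8 and 169.9 in liver and at 0.1 to 0.4 in iWAT (difference 6.89), and their sum was 616.3 in liver replicate 5 against 162.7 to 265.6 in the other livers. Marco, a scavenger receptor used as a Kupffer marker, was not called, with 13.2, 11.7, 4.8, 3.9 and 88.2 in liver and 2.9, 2.9, 99.5, 193.0 and 1.8 in iWAT. The highest iWAT values were again those of replicates 3 and 4, and without these mice the difference was 3.04 (from -0.11). Of 11 neutrophil and mast cell genes 7 were lower in liver, a share near the 58.4% of all genes, led by the mast cell protease Mcpt4 (-6.30). After the median-ratio scaling 6 were lower, against 27.1% of all genes.

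Among vessel and support cells, all 13 endothelial markers were lower in liver, with Pecam1 at -3.84. Of 11 markers of liver sinusoidal endothelium 6 were higher, with Clec4g at 5.32 and Oit3 at 4.60, 2 were lower and 3 were not called. Of 10 stellate cell markers 5 were higher and 2 lower, the lower ones being Des and Rgs5, which pericytes share. Of 12 pericyte and smooth muscle markers 11 were lower, of 10 nerve and Schwann cell markers 9. Of 5 tested red blood cell genes 4 were lower, namely the globins, which took 1.08 to 1.96% of the total in iWAT and 0.117 to 0.180% in liver. Of 17 skeletal muscle markers 11 were lower in liver, a share near the 58.4% of all genes, and 4 were after the median-ratio scaling. The sum of these markers in iWAT was 983.6 in replicate 2 and 120.1 to 217.4 in the others. The simple epithelial keratins Krt8 and Krt18 of hepatocytes were higher in liver by 6.35 and 6.17, although replicate 1 of iWAT held 32.1 and 60.7 against 2.1 or less in the other 4. The part of these admixed cells in the differences of single genes was not tested.

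Genes typical of the other organ had low median values in every library. Over 37 plasma and clotting genes that averaged at least 100 in liver, the value in iWAT was at the median 0.288, 0.395, 0.354, 0.133 and 0.112% of that in the liver of the same mouse, and it was lowest in replicates 4 and 5. The quartiles within replicate 2 were 0.314 and 0.641%. In replicate 1 the share was 0.307% for Alb and 0.209% for Apoa2. In the other direction 23 adipocyte identity genes with at least 100 in iWAT stood in liver at a median of 1.12, 1.57, 1.38, 1.66 and 1.05% of iWAT, and Adipoq at 0.0138 to 0.131%. The source of these low values was not tested.

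**Figure D5:**
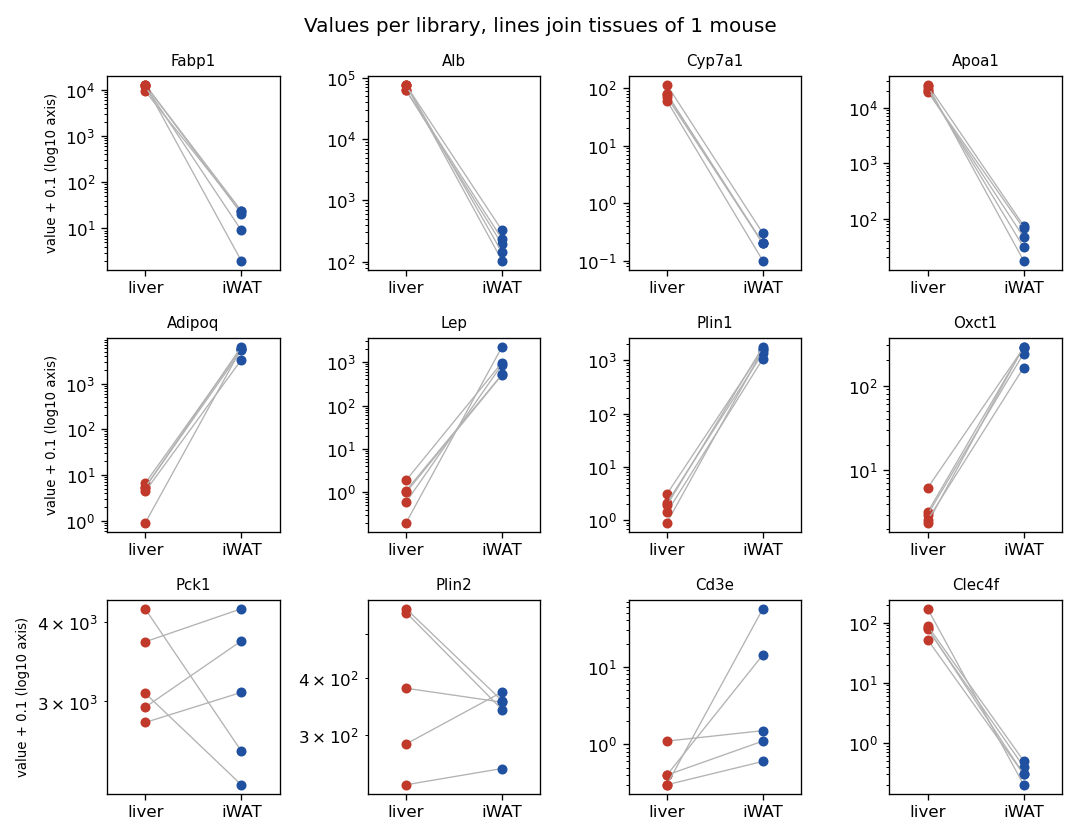
Values of 12 genes in each library on a log10 axis of value + 0.1, livers in red and iWAT in blue, lines joining the tissues of the same mouse. Fabp1, Alb, Cyp7a1 and Apoa1 are higher in all 5 livers, Adipoq, Lep and Plin1 in all 5 iWAT libraries, Pck1 and Plin2 overlap, and Cd3e is highest in replicates 3 and 4 of iWAT.

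The LFABP-/- mice gave the same contrast with other animals. There 1465 of the 15292 genes were called higher in liver (9.58%) and 9774 lower (63.9%), with a median of -1.36. Of the 1530 genes higher in WT liver 1352 were also called higher in LFABP-/- mice, which is 88.4% of the WT and 92.3% of the LFABP-/- list, and 18 were called lower there. Of the 8937 lower genes 8645 were called lower there as well, 96.7% of the WT and 88.4% of the LFABP-/- list, and none was called higher. Of these 18 genes 17 were short non-coding RNAs. In the iWAT of LFABP-/- replicates 2, 3 and 4 the B lymphocyte markers summed to 1005.7, 1926.0 and 1700.6, against 29.7 and 46.4 in the other 2, and the plasma carrier genes summed to 8710.0 in replicate 1 against 3102.3 to 5777.8 in the other 4. The part of these libraries in the counts was not tested.

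The difference between tissues differed by genotype for 40 genes (0.262%), 12 with a higher and 28 with a lower liver minus iWAT difference in LFABP-/- mice (limma on the paired differences, adjusted p below 0.1 and a change above 1). Of all genes 1482 had an unadjusted p below 0.05. Fabp1 led, with 9.89 in WT and 0.15 in LFABP-/- mice (adjusted p = 0.00439), the gene that is null in these mice. Among the 40, 18 were protein-coding and 18 were short non-coding RNAs, which poly(A) selection does not aim at, such as Rn7sk (0.85 and -2.98), Rpph1 (1.81 and -2.32) and Rnu2-10 (1.39 and -2.48). Protein-coding genes included Cyp2f2, a lung and liver P450, with 3.14 in WT and 5.73 in LFABP-/- mice, and Osgin1, an oxidative stress gene, with 3.61 and 1.47. When the mice with lymph node were left out, 3 WT and 2 LFABP-/- mice remained and no gene was called.

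Some of the liver genes lay side by side in the genome. A run was counted where at least 4 neighbouring tested genes differed in the same direction by more than 3, which gave 16 runs with 94 of 704 such genes on the liver side and 5 runs with 25 of 1457 on the fat side. The longest held 23 genes from Mup7 to Mup21 over 2084.4 kb of chromosome 4. Shorter ones held Ahsg, Fetub, Hrg, Kng2 and Kng1 on chromosome 16 (190.8 kb), Serpina10 to Serpina1c on chromosome 12 (290.1 kb), and Lrat with the fibrinogen genes Fgg, Fga and Fgb on chromosome 3 (157.3 kb). On the fat side were Hoxc10 to Hoxc4 on chromosome 15 (70.1 kb), Hoxd9 to Hoxd4 with antisense and unnamed neighbours on chromosome 2 (50.2 kb), Hoxa6 to Hoxa10 on chromosome 6 (34.6 kb), and the Cd209 lectins on chromosome 8 (265.9 kb). Members of tandem families can share reads, so the single values in these runs are less certain than their direction.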

How the data were processed

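Per the labels and the methods of the study, RNA of liver, iWAT and iBAT was poly(A)-selected, sequenced as single reads and mapped to GRCm38 with CLC Genomics Workbench. The deposited values are headed RPKM, but each of the 10 WT liver and iWAT columns sums to between 999967.3 and 999996.4, so they were taken as TPM-scale values, rounded by the authors to 1 decimal. The read depth is not known, and no counting interval is given. Groups and mouse numbers were taken from the sample labels. Genes with a mean of at least 1 in either tissue were fitted after adding 0.5 and taking log2, using limma 3.58.1 under R 4.3.3 (two-sided, intensity trend, mouse as a block, Benjamini-Hochberg over all genes tested). A fold change on this scale understates the change of low genes. Genes were called at an adjusted p below 0.1 and a difference above 1, after the thresholds of the study. The paired libraries share a mouse number in the labels. For WT replicates 4 and 5 the prefix before that number differs between the liver and iWAT column names, and its meaning is not given. Deviations from the tissue means correlated between the tissues of a mouse at -0.172 to 0.08. The spread is that between 5 mice of each genotype.

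The 60 gene lists and the genes compared were chosen with earlier results of these data known, so list counts describe and do not test. Genes were named by a rule (the markers, the 12 highest in each tissue, the 15 largest differences in each direction among named, called genes with a mean above 20 in the higher tissue and no overlap, the leading members of each list and those against its majority, all pair genes, the 10 with the smallest p between genotypes, the 10 genes with a mean above 20 whose difference varied most between mice, and the 10 lymphocyte genes that moved most without replicates 3 and 4), and 37 of the genes in the text fall outside it and were chosen after their values were seen. Kinds of gene came from GENCODE and promoters from RefSeq. The fit was tested on simulated data. Some genes that entered the fits and counts are not reported here by name.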

Additional observations from a re-analysis of the deposited data

Results flagged for a closer look

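A library was singled out when its gap to the nearest of the 5, divided by the range of the group, exceeded 0.71 (Dixon's 95% value). Of 88 groups of values 14 passed. The groups were genes and shares printed in the text, and some genes were named because they varied most between mice. The same libraries also recur across groups, so this count cannot be set against a rate by chance. Replicate 5 of liver was highest for Ccl21a (7.7), Cd3e (1.0), Col1a1 (33.9), Marco (88.2), Oxct1 (6.1) and Hoxc10 (0.1, with 0 in the others). Replicate 4 of iWAT was highest for Ccl21a (1627.9) and Cd3e (56.3), and lowest for Plin2 (253.1) and Pparg (97.6). Replicate 3 of liver was lowest for Fabp1 (9165.5) and highest for Saa1 (366.8). Replicate 1 of iWAT was highest for Lep (2249.5) and for the share of globins (1.96%).

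The difference between tissues was tested between genotypes (limma on the paired differences). The change, LFABP-/- minus WT, was -9.74 for Fabp1, 2.59 for Cyp2f2, -2.14 for Osgin1, -3.83 for Rn7sk, -3.87 for Rnu2-10 and -4.14 for Rpph1.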

How the results depend on the processing

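Of 172 genes named in the text, 137 kept their direction and their side of the threshold under every alternative run. Without the replicate block 1529 genes were higher and 8945 lower, and the block changed no call of a named gene. With a filter at a mean of 20 the counts were 877 and 3619, with a difference above 2 they were 1008 and 3582, after median-ratio scaling 2552 and 4142, and after quantile scaling 2556 and 3541. Leaving out 1 mouse gave 1490 to 1568 higher and 7992 to 9448 lower genes. In LFABP-/- mice median-ratio scaling gave 2646 and 4408. The 40 genes that differed by genotype became 26 to 59 when 1 mouse was left out, 26 being without LFABP-/- replicate 2, and 0 without the mice with lymph node (limma; 1482 genes had an unadjusted p under 0.05 with all mice). Differences that changed sign were, under median-ratio scaling, those of Cebpa (0.0154), Insr (0.58), Lbp (0.0744), Ldha (0.97), Marco (0.88), Pros1 (0.62), Ucp1 (0.87) and mt-Co1 (0.75). Under quantile scaling they were Insr (0.40), Marco (0.76), Pck1 (-0.37), Pros1 (0.31) and Ucp1 (1.15). Without mitochondrial and top 20 genes they were Ldha (0.0467), Marco (0.0524) and Ucp1 (0.0927), and with library weights Marco (0.38) and Ucp1 (0.17). Without replicates 3 and 4 they were Marco (3.04) and Pck1 (-0.0133). When 1 mouse was left out, Ldha ranged from -0.23 to 0.0251, positive without replicate 3. Marco ranged from -1.46 to 1.22 and was positive without replicate 3 (0.92) or 4 (1.22). Pck1 ranged from -0.0492 without replicate 4 to 0.22, and Ucp1 from -0.49 to 0.20, positive without replicate 2, 4 or 5. The cause was not tested.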
